A study of Danio rerio with 16 samples.

Results

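The aryl hydrocarbon receptor (AHR) pathway of the zebrafish embryo is described here through 8 genes chosen by name. They are the receptor genes ahr2, ahr1a and ahr1b, the partner genes arnt and arnt2, the repressor genes ahrra and ahrrb, and tiparp. Each name or identifier matched 1 row of the 32266 genes in the count table, and 7 of the 8 genes were among the 20630 genes with enough reads to be tested. The table of gene names writes arnt2 as ARNT2. The authors' deposited table lists ahrra under the clone name CABZ01103755.1.

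The AHR is a transcription factor of the basic helix-loop-helix PAS family that waits in the cytoplasm bound to Hsp90 chaperones. A ligand such as 2,3,7,8-tetrachlorodibenzo-p-dioxin (TCDD) sends it to the nucleus, where it pairs with an ARNT protein and activates cyp1a and other genes. The AHR repressor lowers the receptor's activity, and TIPARP attaches ADP-ribose to the receptor, so that both act as negative feedback. In zebrafish, ahr2 is known as the receptor through which TCDD harms the embryo.

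Whole embryos of the Tropical 5D line were collected at 48 h post fertilization (hpf), with 20 embryos pooled per sample and 4 biological replicates in each of 4 groups. Every embryo carried a morpholino, a synthetic antisense oligomer, either a control or one directed at the long noncoding RNA slincR. At about 6 hpf each kind of morphant was kept for 1 h in 1 ng/mL TCDD or in the vehicle, 0.1% dimethyl sulfoxide (DMSO), then rinsed and raised. The labels add a molar concentration that does not match this mass concentration, so the TCDD dose is uncertain. No comparison here involves embryos without a morpholino, and each value is an average over all tissues of pooled embryos. In such bulk samples, fewer cells of a type and less RNA per cell cannot be told apart.

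The libraries held 14977267 to 23142081 gene counts, with 12.78% to 16.06% of the counted entries in no gene. One library, replicate 4 of control morphants in DMSO, lay at −63.4 on the first principal component, outside the −17.7 to 19.4 of the other 15. No identifier is paired with slincR in the gene names used here, so the knockdown itself was not checked. As a check of the label, the neuronal gene elavl3 ran from 654 to 916 CPM (counts scaled to library size) over the libraries and the skin gene krt4 from 20800 to 33800. The liver gene tfa ran from 464 to 690 CPM, the heart gene myl7 from 8.2 to 14.1 and the liver gene fabp10a from 0.508 to 2. Of 10 tissue marker genes tested, from 13 symbols, 0 passed the threshold for TCDD in either morphant by the edgeR test used throughout. Their median log2 fold change was −0.15 in control and −0.12 in slincR morphants. With 0.62% and 0.383% of all genes called in these morphants, 0 of 10 does not differ from the background and is no result about the tissues. In control morphants the erythroid gene alas2 had the smallest edgeR adjusted p of the 10, 0.0876, at −0.50 ± 0.13 (SE). The other erythroid gene, hbae1.1, ran from just 0.128 to 3.22 CPM over the libraries. Its value in control morphants, 0.65 ± 0.50 (edgeR adjusted p = 0.659), is too uncertain to set against alas2. In slincR morphants alas2 was at −0.40 ± 0.13 (edgeR adjusted p = 0.309) and hbae1.1 at −0.09 ± 0.51 (adjusted p = 0.995). Since alas2 passed in neither morphant, no erythroid change is read from it.

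TCDD raised ahr2, ahrra, ahrrb and tiparp in control morphants and again in slincR morphants, and none of the 7 tested genes fell. The remaining 4 comprise ahr1b, arnt and arnt2, which did not pass the threshold in either, and ahr1a, which had too few reads. The threshold was an adjusted p under 0.05 over all genes tested, from edgeR's quasi-likelihood (QL) test with Benjamini-Hochberg (BH) adjustment. Over all genes, 0.62% were called for TCDD in control morphants (0.47% higher, 0.15% lower) and 0.383% in slincR morphants (0.31% higher, 0.0727% lower). Neither ahrra nor ahrrb had enough reads in DMSO to be kept, so they were tested only because TCDD libraries had more, and a count over the tested genes is not read as support. Levels below are CPM after TMM scaling (edgeR's trimmed mean of M values), and since they are not divided by gene length they are compared between groups and not between genes.

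**Figure D1:**
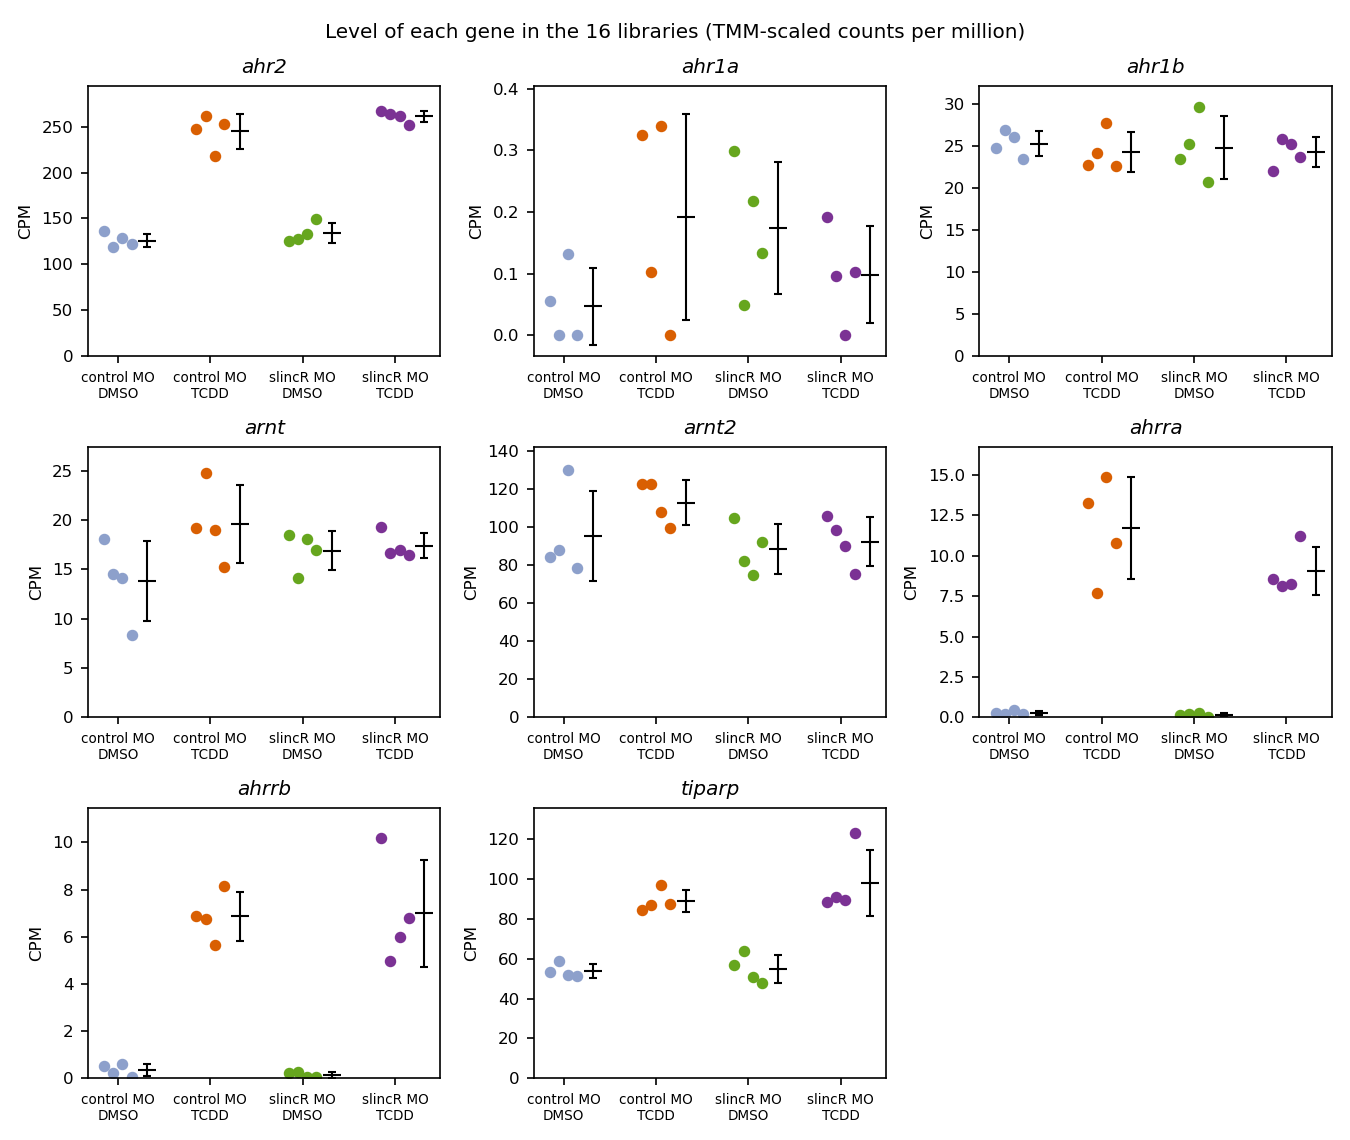
Level of each of the 8 genes in every library, in TMM-scaled CPM on a linear axis, by group; coloured points are libraries in order of replicate, and the black marks are the mean and SD of 4. The ahr2, ahrra, ahrrb and tiparp points with TCDD lie above all points with DMSO, as in ahr2, where DMSO libraries reach 149 CPM and TCDD libraries start at 218.

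The receptor gene ahr2 (ENSDARG00000021833) measured 136, 119, 129 and 122 CPM in replicates 1 to 4 of control morphants in DMSO, and 247, 262, 218 and 253 CPM with TCDD. The slincR morphants had 125, 128, 133 and 149 CPM in DMSO, and 267, 264, 261 and 252 CPM with TCDD. The 8 TCDD libraries lay above the 8 DMSO libraries with no overlap. With 4 libraries against 4 in a single morphant, 2.93% of all genes in control and 2.86% in slincR morphants were separate and higher. The share for 8 against 8 was not computed. Within each exposure the ranges of control and slincR morphants overlapped. The lowest TCDD library exceeded the highest DMSO library 1.61-fold in control and 1.69-fold in slincR morphants.

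The log2 fold change of ahr2 was 0.96 ± 0.08 (SE) in control morphants, a 1.94-fold rise with adjusted p = 2.8e-08 (edgeR QL, BH). In slincR morphants it was 0.96 ± 0.08, a 1.95-fold rise with adjusted p = 2.3e-08. The order of mean levels was control morphants in DMSO at 126 ± 7.57 CPM (SD, n = 4), slincR morphants in DMSO at 134 ± 10.9, control morphants with TCDD at 245 ± 19.1 and slincR morphants with TCDD at 261 ± 6.46. Within each exposure, the means of both morphants did not differ beyond their spread. By log2 fold change ahr2 ranked 179 of 20630 genes in control and 154 in slincR morphants, and each library held 1957 to 5465 of its reads.

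The other receptor gene read in quantity, ahr1b (ENSDARG00000023537), encodes a second zebrafish AHR that also pairs with ARNT proteins. It measured 24.8, 26.9, 26.1 and 23.5 CPM in control morphants in DMSO, and 22.8, 24.2, 27.7 and 22.6 CPM with TCDD. The values in slincR morphants were 23.5, 25.3, 29.6 and 20.7 CPM in DMSO, and 22, 25.9, 25.3 and 23.7 CPM with TCDD. All 4 groups overlapped, with group means of 24.3 to 25.3 CPM.

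Its log2 fold change for TCDD was −0.06 ± 0.11 (SE) in control morphants, with a 95% interval of −0.29 to 0.17, and −0.03 ± 0.11 in slincR morphants, with an interval of −0.26 to 0.20. The edgeR adjusted p was 0.886 and 0.995. Neither interval reaches the 0.79 and 0.80 at which the intervals of ahr2 begin in the same morphants. In RefSeq's GRCz12tu annotation ahr1b and ahr2 are neighbouring protein-coding genes, so these 2 adjacent receptor genes had different TCDD values in the same libraries.

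The third receptor gene, ahr1a (ENSDARG00000020046), is known in zebrafish as a form that binds TCDD poorly. Only 0 to 6 reads were counted per library. The reads numbered 1, 0, 2 and 0 in control morphants in DMSO, 5, 2, 6 and 0 with TCDD, 5, 1, 4 and 3 in slincR morphants in DMSO, and 3, 2, 0 and 2 with TCDD. No group was separate from another. The ratio of summed reads with TCDD to DMSO was 4.23 in control morphants, from 13 and 3 reads, with an exact 95% interval of 1.16 to 23.1 for counting error only. In slincR morphants the ratio was 0.569, from 7 and 13 reads, with an interval of 0.192 to 1.53. With the filter on low counts removed, edgeR's adjusted p for ahr1a was 0.61 and 0.959, so a TCDD response of ahr1a was not detectable at this depth.

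The partner genes encode the proteins with which the activated receptor binds DNA. The ubiquitous partner gene arnt (ENSDARG00000021855) measured 18.1, 14.5, 14.1 and 8.35 CPM in control morphants in DMSO, and 19.2, 24.8, 19 and 15.2 CPM with TCDD. In slincR morphants it measured 18.5, 14.1, 18.1 and 17 CPM in DMSO, and 19.3, 16.7, 17 and 16.5 CPM with TCDD. The lowest of the 16 values came from the library that stood apart on the first principal component, and every pair of groups overlapped.

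The log2 fold change of arnt for TCDD was 0.50 ± 0.17 (SE) in control morphants. Its 95% interval, 0.15 to 0.86, overlapped that of ahr2, which begins at 0.79. With an unadjusted p of 0.00694 and an adjusted p of 0.234 in edgeR, the fold change of arnt did not pass. Leaving out 1 library moved it both ways, to 0.33 ± 0.14 without replicate 4 of control morphants in DMSO (edgeR adjusted p = 0.537) and to 0.67 ± 0.17 without replicate 1 (adjusted p = 0.0951). In slincR morphants the value was 0.04 ± 0.17 (adjusted p = 0.995). Both responses differed by −0.47 ± 0.24, with a 95% interval of −0.96 to 0.03 and adjusted p = 1.

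The second partner gene, ARNT2 (ENSDARG00000103697), encodes the ARNT form that is prominent in the nervous system and is known in zebrafish to pair with Ahr2. It measured 84.5, 88, 130 and 78.5 CPM in control morphants in DMSO, and 123, 123, 108 and 99.6 CPM with TCDD. The slincR morphants had 105, 82, 74.7 and 92.5 CPM in DMSO, and 106, 98.6, 89.9 and 75.4 CPM with TCDD. Replicate 3 of control morphants in DMSO, at 130 CPM, was the highest library of all 4 groups, and the groups overlapped.

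For TCDD the log2 fold change of arnt2 was 0.25 ± 0.14 (SE; edgeR adjusted p = 0.507) in control and 0.06 ± 0.14 (adjusted p = 0.99) in slincR morphants. Without that highest library it was 0.44 ± 0.12 in control morphants (edgeR adjusted p = 0.0981), and without replicate 4 of the same group 0.17 ± 0.14 (adjusted p = 0.81). A response of arnt2 as large as that of ahr2 lies outside both intervals, which end at 0.53 and 0.34.

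The repressor genes showed the widest fold changes of the 7 tested genes. The gene ahrra (ENSDARG00000099702) measured 0.279, 0.205, 0.461 and 0.182 CPM in control morphants in DMSO, from 3 to 7 reads per library, and 13.3, 7.67, 14.9 and 10.8 CPM with TCDD. In slincR morphants it measured 0.119, 0.198, 0.271 and 0.0445 CPM in DMSO, from 1 to 5 reads, and 8.58, 8.11, 8.28 and 11.2 CPM with TCDD. Every TCDD library lay at least 16.6-fold above the highest DMSO library of control morphants, and at least 29.9-fold in slincR morphants.

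The log2 fold change of ahrra was 5.36 ± 0.31 (SE) in control and 5.81 ± 0.33 in slincR morphants, with edgeR adjusted p = 1.8e-11 and 1.7e-11. In both morphants it ranked 2 of 20630 genes by log2 fold change. A high rank is favoured by the few DMSO reads and by being kept only through TCDD libraries. The rank is therefore not read as support. The DMSO level rests on 19 and 12 reads summed over 4 libraries. The ratio of summed reads was 41.8 with an exact 95% counting interval of 26.6 to 69.8 in control morphants, and 59 with an interval of 33.5 to 115 in slincR morphants.

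The second repressor gene, ahrrb (ENSDARG00000052618), measured 0.502, 0.205, 0.592 and 0.0605 CPM in control morphants in DMSO, from 1 to 9 reads, and 6.89, 6.74, 5.65 and 8.17 CPM with TCDD. In slincR morphants it measured 0.238, 0.247, 0.0543 and 0.0445 CPM in DMSO, from 1 to 5 reads, and 10.2, 4.97, 6 and 6.78 CPM with TCDD. The groups were again separate, with the lowest TCDD library 9.53-fold above the highest DMSO library in control and 20.1-fold in slincR morphants. Of all genes, 2.93% in control and 2.86% in slincR morphants were separate and higher with TCDD.

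Its log2 fold change was 4.33 ± 0.37 (SE) in control and 5.55 ± 0.42 in slincR morphants, with edgeR adjusted p = 4.5e-08 and 3.3e-09. It ranked 7 and 3 of 20630 genes, which for the same reasons as with ahrra is not read as support. The ratio of summed reads was 20.6, with a counting interval of 13.6 to 32.9, in control morphants and 48.2, with an interval of 26.7 to 97.2, in slincR morphants. The larger ratio came with a lower DMSO level, 11 reads against 23 in control morphants, while the TCDD level was 6.86 ± 1.03 CPM (SD, n = 4) in control and 6.99 ± 2.26 in slincR morphants.

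With TCDD the repressor genes did not keep the same order of libraries. Reads of ahrra per read of ahrrb numbered 1.92, 1.14, 2.64 and 1.32 in replicates 1 to 4 of control morphants, and 0.843, 1.63, 1.38 and 1.66 in slincR morphants. In control morphants, replicate 3 had the highest ahrra and the lowest ahrrb level, and replicate 1 of slincR morphants had the highest ahrrb level of all. Since the gene lengths are not divided out, these ratios compare libraries and not the genes' levels.

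TCDD-inducible poly(ADP-ribose) polymerase, the product of tiparp (ENSDARG00000061841), was named for its induction in mammalian cells. The gene measured 53.2, 59.1, 52 and 51.1 CPM in control morphants in DMSO, and 84.5, 87.2, 96.8 and 87.6 CPM with TCDD. Values of 56.8, 63.9, 51 and 47.9 CPM were measured in slincR morphants in DMSO, and 88.3, 91.1, 89.5 and 123 CPM with TCDD. TCDD libraries lay above DMSO libraries in each morphant, as did 2.93% of all genes in control and 2.86% in slincR morphants. Replicate 4 of slincR morphants with TCDD stood above the other 3.

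The log2 fold change of tiparp was 0.72 ± 0.11 (SE), a 1.65-fold rise, in control morphants and 0.84 ± 0.11, a 1.79-fold rise, in slincR morphants. The edgeR adjusted p was 3.7e-04 and 4.1e-05. Without replicate 4 of slincR morphants with TCDD the value in slincR morphants was 0.71, the lowest over all settings tried, and still past the threshold. Unlike the repressor genes, tiparp had 790 reads or more in every DMSO library, so its fold change does not rest on a few reads.

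**Figure D2:**
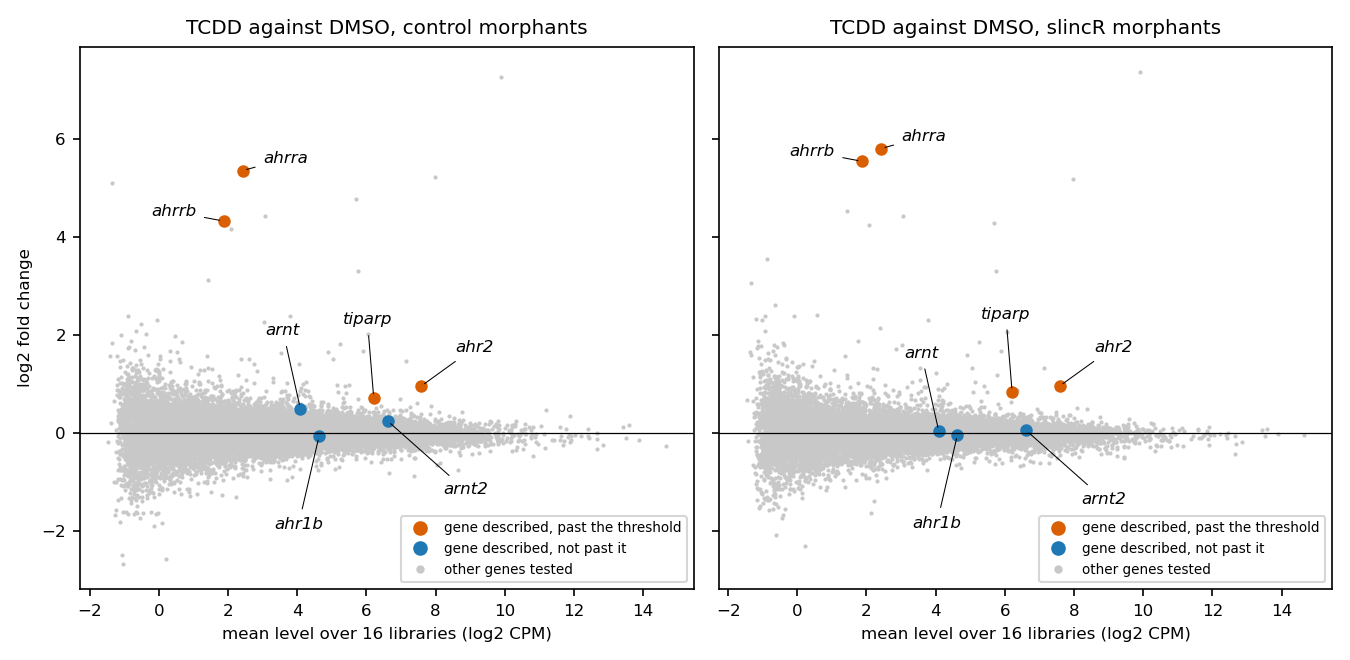
Log2 fold change for TCDD against DMSO (y axis) by mean level over the 16 libraries in log2 CPM (x axis), for all 20630 tested genes (grey) and 7 of the genes described, orange where past the threshold and blue where not, in control (left) and slincR morphants (right). The ahrra and ahrrb points lie far above the grey cloud, at 4.33 to 5.81, and ahr2 and tiparp lie at its upper edge, at 0.72 to 0.96.

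The authors' deposited tables list the same 4 genes as past their threshold in both comparisons. In the authors' deposited table for control morphants the log2 fold change is 0.96 for ahr2, 5.37 for ahrra, 4.33 for ahrrb and 0.73 for tiparp. In the authors' deposited table for slincR morphants it is 0.97, 5.81, 5.55 and 0.84 in the same order. These tables come from the same libraries and are no independent evidence.

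Whether slincR knockdown shifts the pathway was asked in both exposures. None of the 7 tested genes passed the edgeR threshold for the morpholino in DMSO or with TCDD, where 0.15% and 0.446% of all genes were called in either direction. At these shares, 0 of 7 does not differ from the background and is no result about the genes. The knockdown itself was not checked. In DMSO 0 of the 7 had an unadjusted p under 0.05, against 9.11% of all genes, and with TCDD 1 of the 7 had one, arnt2, against 10.8%. DESeq2 and limma-voom called 0 of these genes in either exposure.

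For ahr2 the 95% interval of the morpholino's log2 fold change was −0.08 to 0.25 in DMSO and −0.07 to 0.26 with TCDD, which leaves room for changes of up to about 0.26. For tiparp it was −0.19 to 0.25 and −0.08 to 0.36. The repressor genes were measured far less tightly in DMSO. There ahrra had a value of −0.81 ± 0.55 (SE; edgeR adjusted p = 0.686), with an interval of −1.95 to 0.33, and ahrrb −1.20 ± 0.62 (adjusted p = 0.587), with an interval of −2.48 to 0.09. With TCDD, where reads were plentiful, ahrra stood at −0.36 ± 0.20 (adjusted p = 0.539) and ahrrb at 0.02 ± 0.26 (adjusted p = 0.988). By summed reads, slincR over control, the ratio of ahrra was 0.56 (exact 95% counting interval 0.248 to 1.22) in DMSO and 0.79 (0.712 to 0.876) with TCDD. For ahrrb it was 0.424 (0.187 to 0.906) and 0.99 (0.873 to 1.12), and for ahr1a 3.84 (1.06 to 21) and 0.517 (0.175 to 1.4). These intervals leave out the spread between pools, so they are not read as calls.

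With TCDD, slincR and control libraries overlapped for each of the 8 genes, where 7.66% of all tested genes had groups that did not overlap. For so few genes this is near the background and is no result about them. For arnt2, which measured 75.4 to 106 CPM in slincR and 99.6 to 123 CPM in control morphants, the log2 fold change was −0.30 ± 0.14 (SE; edgeR adjusted p = 0.429).

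**Figure D3:**
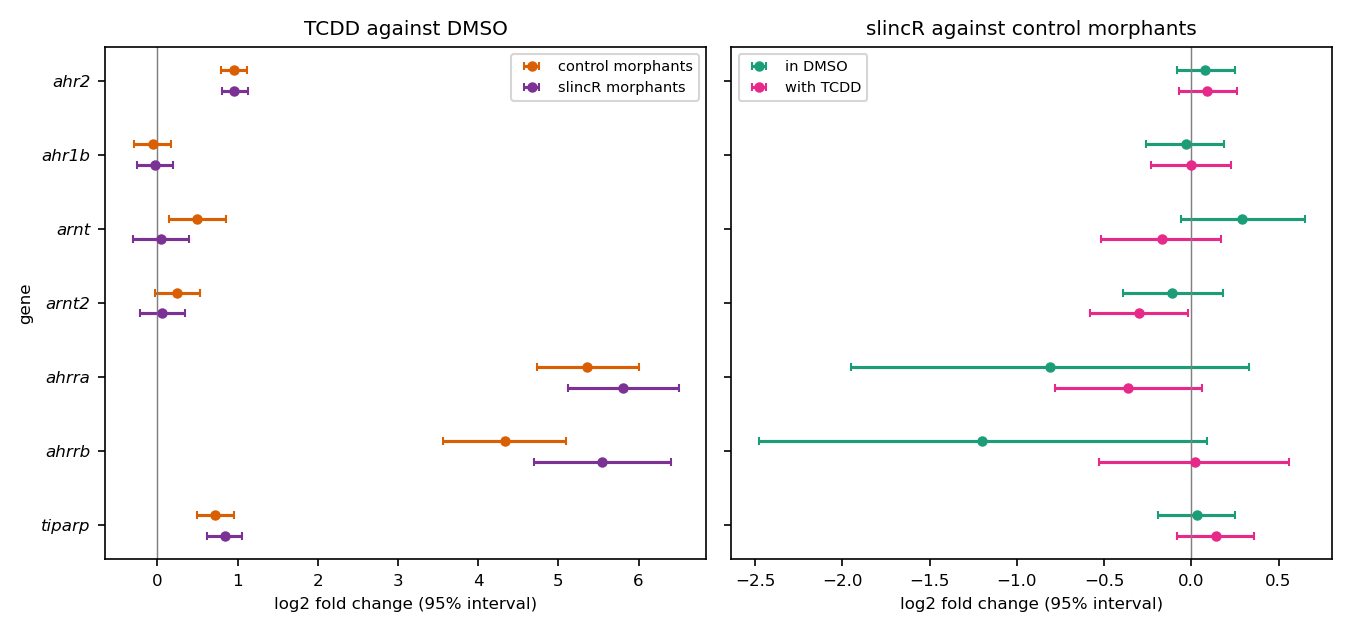
Log2 fold change with its 95% interval from the edgeR QL fit for 7 genes, for TCDD against DMSO (left, control and slincR morphants) and for slincR against control morphants (right, in DMSO and with TCDD). On the left ahr2, ahrra, ahrrb and tiparp lie clear of 0 in both morphants; on the right ahrra and ahrrb in DMSO have the widest intervals, and that of arnt2 with TCDD ends just short of 0.

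The dependence of each TCDD response on the morpholino was tested as the difference of both responses. None of the 7 tested genes passed in edgeR, with adjusted p = 1 for each, 0 of them had an unadjusted p under 0.05, and DESeq2 and limma-voom also called 0. No gene of the 20630 passed in this comparison (0%), and 617 had an unadjusted p under 0.05, so the counts of 0 do not differ from the background. For ahr2 the response of slincR morphants differed by 0.01 ± 0.11 (SE), with a 95% interval of −0.22 to 0.24. For tiparp the difference was 0.11 ± 0.15, with an interval of −0.20 to 0.42, and for ahr1b 0.03 ± 0.16. The differences of the repressor genes had wide intervals, −0.74 to 1.63 for ahrra and −0.17 to 2.61 for ahrrb, so unequal responses of more than 2-fold remain within them. These p-values measure the spread between pools of embryos.

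The genes whose levels ran most like each of these over the 16 libraries are given as a description, by Pearson's r of log2 CPM. For genes raised by TCDD, r mostly reflects the gap between DMSO and TCDD libraries. The nearest to ahr2 were ccn2b (r = 0.981), cyp1c1 (0.979), cyp1a (0.976) and ugt1b5 (0.973). Of these, cyp1c1 and cyp1a encode monooxygenases of the CYP1 family, and their log2 fold changes in control morphants were 5.22 and 7.27 against 0.96 for ahr2. The nearest to ahrra were cyp1c2 (0.988), cyp1a (0.987), cyp1c1 (0.987) and cyp1b1 (0.984), and the nearest to ahrrb were cyp1b1 (0.982), ahrra (0.974), cyp1a (0.968) and cyp1c1 (0.965). For tiparp they were ugt1b1 (0.949), cyp1b1 (0.946), ctgfa (0.946) and foxf2a (0.944).

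The genes that did not pass for TCDD had other nearest genes, with lower values. For arnt these were ADD1 (0.901), ANKFN1 (0.895), TMTC2 (0.893) and MAP3K13 (0.892), and for arnt2 RAB8A (0.892), si:dkeyp-68b7.10 (0.880), TPD52 (0.876) and col4a6 (0.865). For ahr1b they were si:dkey-1b17.5 (0.823), ITSN2 (0.777), dlgap4a (0.776) and FBXO40 (0.775).

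Other genes of the pathway were taken from lists and matched by the gene names used here, which left several list members without an identifier. Of 8 matched genes, from 13 symbols for cyp1 genes and known AHR targets, 5 rose with TCDD in each morphant and 0 fell. Of all genes, 0.47% in control and 0.31% in slincR morphants were called higher. The list was chosen with earlier results of these data known, so this count is not read as support. The median log2 fold change of the 8 matched genes was 1.65 in control and 1.88 in slincR morphants, where the median of all genes was 0.00. By smallest p, the first were cyp1c1 at 5.22 ± 0.12 (SE; edgeR adjusted p = 2.5e-20), cyp1c2 at 4.79 ± 0.15 (7.1e-17) and cyp1b1 at 3.32 ± 0.13 (8.5e-15) in control morphants. The 3 that did not pass in control morphants were foxq1b at 0.72 ± 0.19 (adjusted p = 0.105), nqo1 at 0.19 ± 0.10 (adjusted p = 0.52) and cyp1d1 at −0.03 ± 0.10 (adjusted p = 0.956). The count, median and order leave out the symbols without a match. The authors' deposited lists of called genes name foxq1a, nfe2l2a and cyp1a, which were not matched here. The identifier of cyp1a stands in the gene table as CYP1A1. The log2 fold change of cyp1a, 7.27 in control morphants, exceeds those of the 8 matched genes.

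Of 5 genes for Hsp90 chaperones and cochaperones, from 8 symbols, 0 passed edgeR for TCDD in either morphant, with a median log2 fold change of −0.07 in control and −0.01 in slincR morphants. Of 7 coactivator and corepressor genes, from 12 symbols, 0 passed in either (medians 0.06 and 0.04). Of 11 tested genes for ADP-ribose transfer or removal, from 14 symbols, 0 passed in either (medians 0.05 and 0.01). With 0.62% and 0.383% of all genes called in control and slincR morphants, counts of 0 in lists this short do not differ from the background and are no result about these lists.

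Of 6 other genes for bHLH-PAS factors, the family of AHR and ARNT, from 20 symbols, 0 passed in control morphants (median 0.02). In slincR morphants 1 fell (median 0.03), where 0.0727% of all genes were called lower. A count of 1 in a list this short is not read as a result about the family. For the morpholino in either exposure, and for the difference of TCDD responses, edgeR called 0 genes of any of these lists. Of all genes, 0.15% were called for the morpholino in DMSO, 0.446% with TCDD and 0% for the difference. These counts of 0 do not differ from the background and are no result about the lists. The gene that fell was hif1al2, named after its values were seen, at −0.52 ± 0.11 (SE; edgeR adjusted p = 0.034) in slincR and −0.35 ± 0.11 (adjusted p = 0.204) in control morphants. The call in slincR morphants was lost under 7 of 23 alternative settings, each of them leaving out 1 library: replicate 1, 2, 3 or 4 of slincR morphants in DMSO (adjusted p = 0.0707, 0.076, 0.0541 and 0.146) or replicate 1, 2 or 4 with TCDD (0.151, 0.184 and 0.0698).

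**Figure D4:**
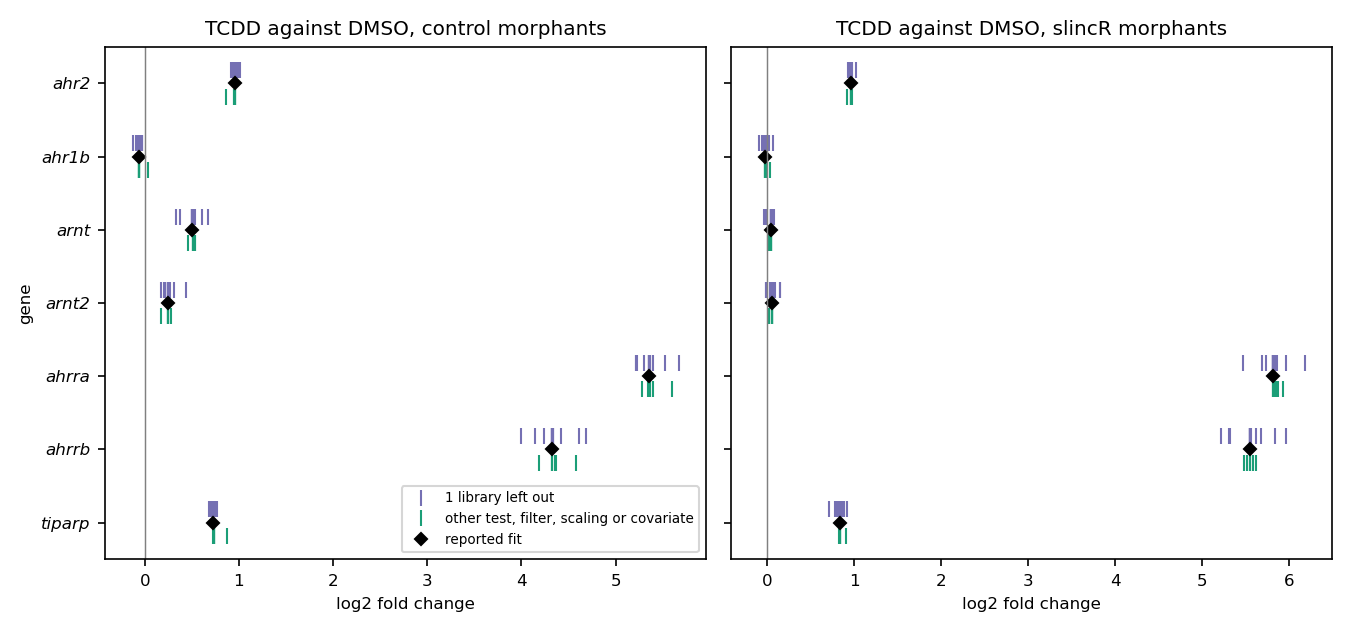
Log2 fold change for TCDD against DMSO of 7 genes under the reported fit (black diamonds), with 1 library left out (purple ticks) and under another test, filter, scaling, sample set or covariate (green ticks), in control (left) and slincR morphants (right). The ticks of ahr2 stay between 0.86 and 1.02 in both panels, and those of ahrrb in control morphants between 4.00 and 4.69.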

How the data were processed

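Messenger RNA was selected by poly-A and sequenced as paired reads, per the labels' protocols. The authors deposited raw counts per gene for 16 libraries. Per the submitters' processing notes the tools included TopHat, HTSeq and edgeR, and the genome build was GRCz10. Their versions and the strand setting of the counting were not given in the sources used here. Antisense or overlapping genes therefore cannot be told apart. The lists of called genes deposited by the authors give p-values, log2 fold changes and levels, the F score of each test and the −log10 of the adjusted p, per the file headers.

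Counts were fitted with edgeR 4.0.16 in R 4.3.3 (TMM, filterByExpr with a minimum count of 10, a mean per group, all 16 libraries, 12 residual degrees of freedom), after the procedure was tested on simulated data. The biological coefficient of variation was 14%. The SE is the log2 fold change divided by the root of the QL F statistic, and intervals use the moderated degrees of freedom. DESeq2 1.42.0 and limma-voom 3.58.1 were alternatives. The 8 genes and all lists were chosen with earlier results of these data known. Named beside them are up to 3 genes past the threshold per list by smallest p in control morphants. The cyp1 genes and AHR targets that did not pass, alas2 and hbae1.1 are also named, chosen after their values were seen. So are the 4 genes with a symbol and the highest r (log2 CPM with a prior count of 2). Lists were matched by symbol to a gene table that names 26433 identifiers. One further gene of the set is not reported here. Promoter and protein sequences were not used here.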

Additional observations from a re-analysis of the deposited data

Results flagged for a closer look

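For 8 genes in 4 groups there were 32 sets of 4 libraries. Of these, 2 had 1 library far from the other 3 by Dixon's criterion. Chance meets it in about 1 of 20 sets of independent, normally distributed values. These sets share libraries and some hold only a few reads, so that rate is a rough guide. The count of 2 of 32 is not read as a result. Both flagged sets were in replicate 4 of slincR morphants with TCDD. In that library ahrra measured 11.2 CPM against 8.11 to 8.58 in the others, and tiparp 123 CPM against 88.3 to 91.1. The same library had 12.81% of its entries in no gene, against 14.53% to 15.16% in the others of its group. In each of the 4 groups, the library with the lowest such share had the highest tiparp level. With this share in the edgeR model, tiparp stood at 0.87 ± 0.08 (log2 fold change, SE) in control and 0.90 ± 0.08 in slincR morphants. Without it the values were 0.72 and 0.84. For ahr2 the model with the share gave 0.86 ± 0.06 and 0.92 ± 0.06, against 0.96 in both morphants without it. What part the share had in these levels was not tested.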

How the results depend on the processing

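The calls of the 7 tested genes were the same under all 23 alternatives, 22 for the difference of responses: 4 for TCDD in control morphants, 4 in slincR morphants and 0 in each of the other comparisons. Between morphants in DMSO, the fit of just the 8 libraries compared gave no value for ahrra and ahrrb. The background over all genes moved more. For TCDD in control morphants 128 genes passed, against 275 by DESeq2, 69 when the fit held just the 8 libraries of the comparison, and 283 when the percentage of entries outside genes entered the model. With 1 library left out the count ran from 70 to 155, with 71, 70 and 78 without replicate 1, 2 and 4 of control morphants with TCDD. In slincR morphants 79 passed, against 165, 125 and 130 under those 3 settings and 61 to 114 with 1 library left out. For the morpholino in DMSO 31 passed, against 97, 17 and 99, 54 with no filter, and 17 to 52 with 1 library left out (52 without replicate 2 of control morphants, 20 and 17 without replicate 2 and 3 of slincR morphants, all in DMSO). For the morpholino with TCDD 92 passed, against 244, 180 and 286, and 22 to 115 with 1 library left out (39, 59 and 43 without replicate 1, 2 and 3 of control morphants, 32, 22 and 45 without replicate 1, 2 and 4 of slincR morphants). The cause was not tested. With a replicate block, 4, 4, 0, 0 and 0 of the 7 tested genes passed, and 108, 86, 30, 109 and 0 of all genes. Same-numbered libraries correlated at −0.18 to 0.13 after removing group means and best matched their own number in at most 4 of 8 cases. No clear pairing by number was seen, and with 4 libraries per group a weak pairing could be missed. The few reads of ahr1a, and of ahrra and ahrrb in DMSO, limit what can be said of them.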
